A study of Caenorhabditis elegans with 2 samples.

Results

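The peaks described here are sites of GFP-tagged MADF-9 on the autosomes of C. elegans that lay upstream of a protein-coding gene but not at its annotated start. A peak of the authors' set called between replicates was a member when its summit lay over 250 and up to 1000 bp upstream of a protein-coding transcript start, no such start had the summit within 250 bp upstream to 200 bp downstream of it, and no tRNA gene lay within 250 bp. Of the 1637 peaks of the set, 271 were members, against 336 autosomal promoter peaks close to a start, 246 inside gene bodies and 242 elsewhere on the autosomes. Within the set, the rule used positions relative to annotated starts and tRNA genes. The set itself was thresholded by the authors on agreement between the replicates' peaks, so the members' replicate values are descriptions.

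The experiment was a ChIP-seq of whole L4 larvae, collected 48 hours into growth from starved L1 worms. There was 1 group, strain RW12324, in which a CRISPR insertion at madf-9 on chromosome IV adds TY1, EGFP and 3xFLAG to the protein, and chromatin was pulled down with an antibody against GFP. The group had 2 replicates that the labels number as biological, with nothing else on how the cultures were kept apart, so the spread between them may be technical. Every cell type of the worm was in the same sample. No library from untagged worms was analysed here, so binding by MADF-9 and pull-down at open or highly transcribed sites cannot be told apart, and with 1 group no test between conditions could be made. The files used here are peak lists without read counts, so depth is unknown.

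MADF domains are DNA-binding folds related to the Myb domain, found in families of transcription regulators in insects and nematodes. In C. elegans the stretch upstream of the first trans-splice acceptor is replaced in many messenger RNAs by a spliced leader, a short RNA donated by SL RNA genes. The original 5′ end is lost. The annotated start of such a gene then marks the trans-splice acceptor, and RNA polymerase can begin transcription some way upstream of it. Neighbouring genes in the compact worm genome also often point away from each other and share the stretch between their starts.

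Sequences under 10 of the strongest members are shown because the results on base composition, short words and a repeated element refer to them. Each run is the summit with 50 bases to either side, on ce11, read 5′ to 3′ on the strand of the nearest gene from the RefSeq copy of that assembly. Capitals mark 3 items on either strand, the word AGACGCAG, the word CTACGGT and the 20-base core of a repeated element, and all other bases are in lower case.
mog-4, chrII:14561800-14561900, minus strand: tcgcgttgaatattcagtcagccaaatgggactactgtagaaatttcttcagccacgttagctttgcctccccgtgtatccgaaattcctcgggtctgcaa
rpl-3, chrIII:3867532-3867632, plus strand: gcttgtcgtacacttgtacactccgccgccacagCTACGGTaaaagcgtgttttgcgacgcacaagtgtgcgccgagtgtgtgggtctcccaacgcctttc
rpl-15, chrIV:654878-654978, minus strand: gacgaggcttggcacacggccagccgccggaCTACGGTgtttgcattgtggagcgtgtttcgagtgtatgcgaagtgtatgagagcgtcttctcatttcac
rpl-35, chrIII:7854631-7854731, plus strand: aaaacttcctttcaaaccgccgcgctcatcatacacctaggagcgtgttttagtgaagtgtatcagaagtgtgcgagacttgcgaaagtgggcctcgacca
rps-1, chrIII:4475606-4475706, plus strand: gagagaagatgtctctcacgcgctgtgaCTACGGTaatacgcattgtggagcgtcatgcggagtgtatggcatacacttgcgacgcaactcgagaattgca
cox-5A, chrIII:12905153-12905253, plus strand: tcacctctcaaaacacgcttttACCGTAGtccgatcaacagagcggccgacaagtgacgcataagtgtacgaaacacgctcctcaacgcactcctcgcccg
cnk-1, chrIII:10270893-10270993, plus strand: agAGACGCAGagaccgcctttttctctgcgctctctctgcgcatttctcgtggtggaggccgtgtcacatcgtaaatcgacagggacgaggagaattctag
eel-1, chrIV:3050422-3050522, minus strand: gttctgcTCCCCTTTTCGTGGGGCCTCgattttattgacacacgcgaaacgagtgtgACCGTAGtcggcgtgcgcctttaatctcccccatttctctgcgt
H41C03.3, chrII:5844769-5844869, plus strand: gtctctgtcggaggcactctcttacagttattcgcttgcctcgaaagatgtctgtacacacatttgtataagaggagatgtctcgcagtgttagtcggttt
madf-9, chrIV:3636750-3636850, plus strand: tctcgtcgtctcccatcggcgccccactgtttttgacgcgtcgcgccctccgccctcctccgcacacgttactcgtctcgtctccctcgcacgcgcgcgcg

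The strongest members lay upstream of genes for splicing, ribosomal proteins, replication, signalling and respiration. mog-4 codes for a DEAH-box RNA helicase that acts in pre-mRNA splicing. Its peak, just over 250 bp from its start, reached a signal of 609, with 332 in replicate 1 and 268 in replicate 2. rpl-3, which encodes large ribosomal subunit protein uL3, had 584, with 304 and 284 in replicates 1 and 2, at 272 bp. They ranked 2 and 4 among all 1637 peaks, and both replicates put the pair above every other member. The signal is the authors' own strength value for a peak on a scale that is not stated, so it only ranks peaks of this set. For members, the value of the set was close to the sum of the replicate values, with a median ratio of 0.993 when regions counted for more than 1 peak are left aside.

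Below the pair stood rpl-15 at 445, with 230 in replicate 1 and 204 in replicate 2, whose peak lay 352 bp from the start of rpl-15 and 462 bp from that of the gene on the other side, K11H12.8. rpl-35, for ribosomal protein uL29, had 356, with 194 and 157 in replicates 1 and 2, at 453 bp. rpa-2, for a subunit of the single-strand DNA-binding replication protein A, had 354, with 203 and 148, at 631 bp. The next 3 differed little from these in either replicate. cnk-1, a scaffold of Ras signalling, had 353, with 200 and 149, at 314 bp. eel-1, a HECT-type ubiquitin ligase, had 347, with 192 and 151, at 368 bp, and a further member at 794 bp with a signal of 199. F59C6.18, annotated by RefSeq as an FMRF-like peptide, had 324, with 171 and 143, at 798 bp, and a snoRNA gene, F59C6.15, lay within 250 bp of that summit.

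H41C03.3, an uncharacterized gene, had 321, with 163 in replicate 1 and 152 in replicate 2, at 958 bp from its start. The SL RNA gene sls-2.1 lay within 250 bp of this summit, much nearer than the protein-coding start that placed the peak among the members. cox-5A, a cytochrome c oxidase subunit, had 308, with 149 in replicate 1 and 163 in replicate 2, and was the 1 gene among the 12 strongest with the higher value in replicate 2. madf-9, the gene that carries the tag, had 307, with 175 and 125, at 279 bp, and its interval of 434 bp was the widest of all members. It ranked 11 among the members by signal, and it was 1 of 2 members at MADF genes. The other, madf-11, had 84.2, with 41.2 and 34.3 in replicates 1 and 2, at 280 bp, and was called in neither replicate alone. The last of the 12 lay between tag-340 and nhl-2 at 275, with 150 and 122. nhl-2, a TRIM-NHL protein that works with microRNAs, starts 859 bp from it and tag-340 starts 564 bp from it.

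**Figure D1:**
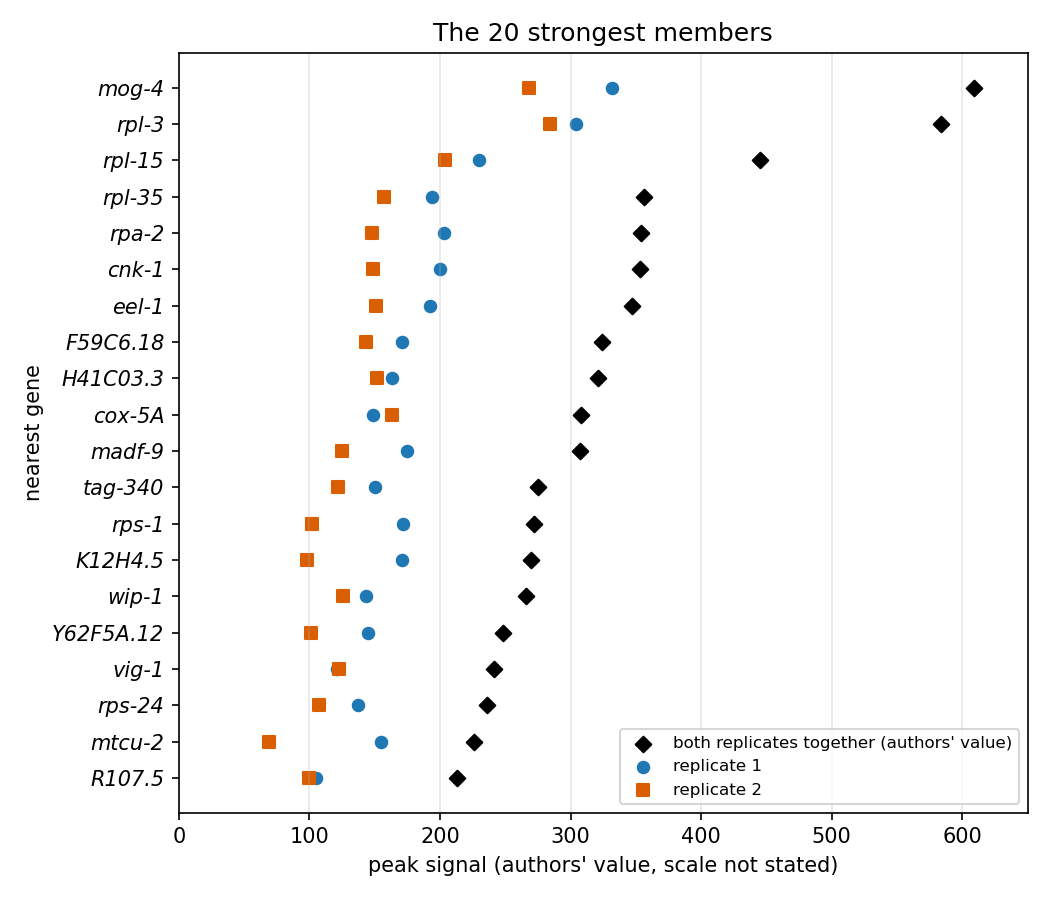
Peak signal of the 20 strongest members (x axis, authors' value, scale not stated) by nearest gene (y axis), with the value of both replicates together as diamonds, replicate 1 as circles and replicate 2 as squares. mog-4 at 609 and rpl-3 at 584 stand apart from the rest, and R107.5 at 213 is the weakest shown.

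Most members were far weaker than these. The lower quartile of the signal was 72, the median 91.4 and the upper quartile 124, against 71.1, 91.2 and 125 for the close promoter peaks, so the 2 groups of promoter peaks had nearly the same distribution. The members' signals ran between 2.01 and 609. The interval was exactly 260 bp wide in 241 of the 271, with a range of 65 to 434 bp, so its width says little about the size of a binding site.

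The lowest values came from overlapping calls. The 4 weakest members were peaks upstream of lgg-2 at 2.01, C09E7.7 at 4.60, ipla-6 at 9.29 and gck-1 at 11.5. Each lay about 200 bp from a stronger peak of the set, and the same replicate region served both. In all, 13 members shared a replicate region with another peak, and their replicate values belong to both peaks. Without those 13 the lowest signal was 30.1 and the median 92.0.

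The replicates ranked the members alike in part. At the 266 members where both replicates had a region, signals had a Spearman rho of 0.676 and a Pearson r on log2 values of 0.819, and 0.704 and 0.833 over the 254 that shared no region. These are descriptions over peaks that were chosen for agreeing between the same replicates. For the close promoter peaks the values were 0.647 and 0.766 over 331. Replicate 1 was higher than replicate 2 at 210 of the 266 members, with a median ratio of 1.24. Summits in the replicates lay a median of 27 bp apart, and within 50 bp of each other in 71.4% of pairs (95% Wilson interval 65.7 to 76.5), against 20 bp and 80.7% (76.1 to 84.6) for close promoter peaks. All intervals given for shares cover counting error only.

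Each replicate also had a thresholded set of its own. Of the 271 members, 90 overlapped both replicates' own sets (33.2%, 27.9 to 39.0), 64 replicate 1's only, 29 replicate 2's only and 88 neither, against 129 of 336 close promoter peaks in both (38.4%, 33.4 to 43.7). Split into 4 equal groups by signal, from strong to weak, 65 of 68, 25 of 68, 0 of 68 and 0 of 67 members were called in both. The weaker members therefore rest on the combined call. The strongest members in neither own set were W03F8.4, the worm form of a KEOPS complex subunit, at 93.8 with 45.7 in replicate 1 and 44.2 in replicate 2, ttll-4, a tubulin polyglutamylase, at 91.4 with 54.3 and 40.7, Y111B2A.12, a WD-repeat protein gene, at 88.4 with 47.6 and 27.6, and C33B4.4, uncharacterized, at 87.3 with 46.3 and 40.4.

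**Figure D2:**
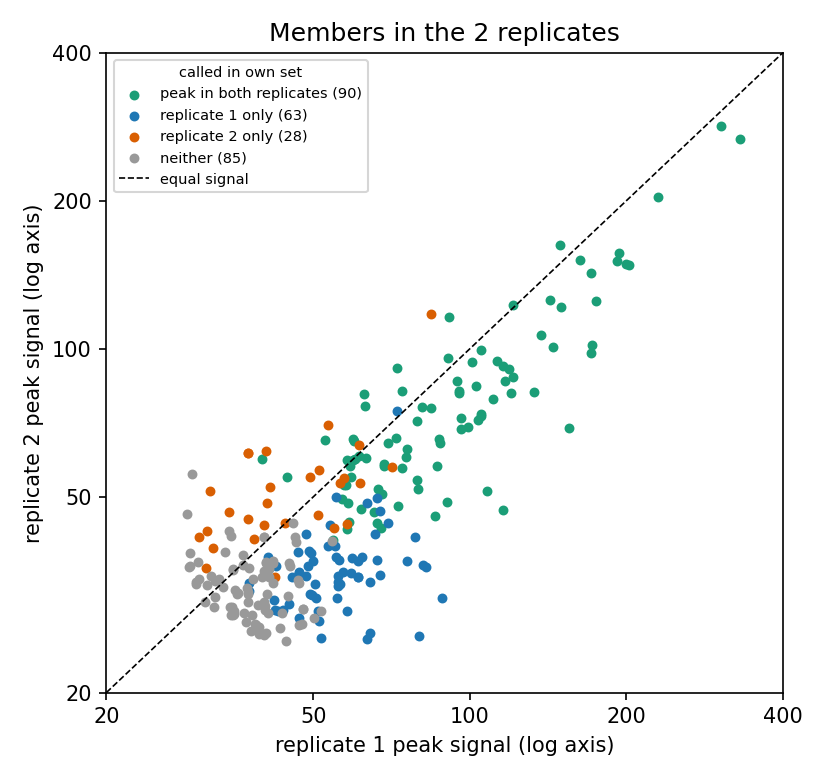
Replicate 1 peak signal (x axis, log scale) against replicate 2 peak signal (y axis, log scale) at the 266 members with a region in both, coloured by whether the member overlapped a peak of each replicate's own set. Most points lie below the dashed line of equal signal, since replicate 1 was higher at 210 of them, and the members called in both are the strong ones.

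Members crowded towards the inner edge of the window. Their distance to the nearest start had a median of 458 bp, with quartiles of 327 and 684 bp, and 110 of the 271 lay within 400 bp. The density was 40.3 peaks per Mb at 250 to 400 bp, 20.2 at 400 to 550, 17.3 at 550 to 700, 12.2 at 700 to 850 and 14.2 at 850 to 1000 bp, each bin without its lower bound. Across the autosomes, peaks away from tRNA genes stood at 13.3 per Mb, an average that includes the members and the close promoter peaks. Beyond 700 bp the members were about as dense as that average. The density outside both promoter windows was not computed. Over the whole window the density was 21.2 per Mb, against 35.2 in the window around the start. The median signal was 98.4 and 97.6 in the 2 nearest bins and 77.3, 75.8 and 81.0 in the 3 farther ones, while strong members occurred in every bin, up to H41C03.3 at 321 in the last.

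**Figure D3:**
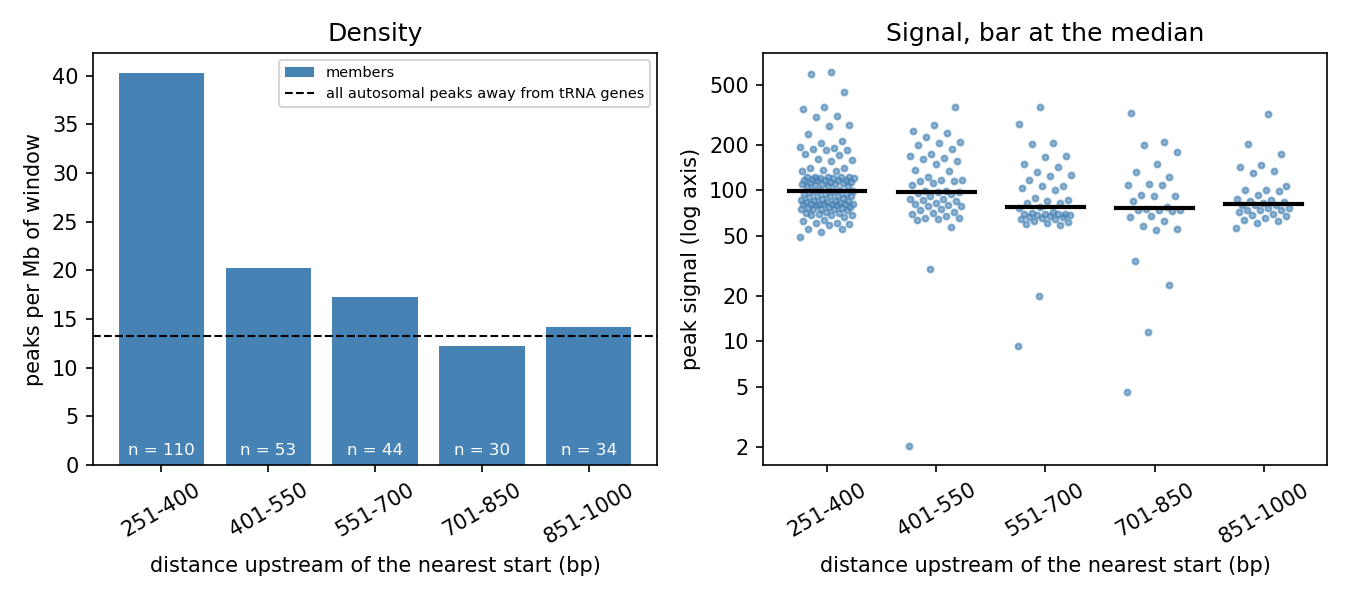
Left, members per Mb of genome in 5 bins of distance to the nearest start, with the number of members in each bar and the autosomal density of 13.3 per Mb as a dashed line. Right, the signal of each member (log scale) in the same bins with the median as a bar, which shows that the first bin holds 110 members and that its median of 98.4 is close to that of the second.

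The inner edge did not separate strong from weak peaks. Just inside it, each 1 bp beyond 250 bp, were mog-4 and F26F2.7, a TAPT1 homolog with a signal of 80.1, followed by imb-3, an importin, at 253 bp with 160. Just outside were hat-1, a histone acetyltransferase, at 250 bp with 129, epc-1, an Enhancer of Polycomb homolog, at 248 bp with 108, and dld-1, a dihydrolipoamide dehydrogenase, at 247 bp with 81.1. At the outer edge, dhs-8 at 997 bp had 134, mrpl-23 at 998 bp had 142, and gck-1 at 999 bp had 68.9.

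The annotated start downstream of a member often followed the bases of a splice acceptor. Of the 262 different nearest starts, 137 came directly after AG (52.3%, 46.3 to 58.3), against 127 of 336 for close promoter peaks (37.8%, 32.8 to 43.1) and 26.5% of all 25190 autosomal protein-coding starts. TTCAG, which ends in the same AG, directly preceded 29.0%, against 21.4% and 13.1%. AG before a start is what a trans-splice acceptor leaves, and also what many unrelated positions carry. Whether transcription of these genes begins nearer to the peak was not tested.

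The share of autosomal candidates that became peaks was higher in the window than across the autosomes. Of 10804 ranked regions in the window 271 passed the authors' threshold, 2.51%, against 1095 of 70564 ranked autosomal regions away from tRNA genes, 1.55%. The second share includes the members and the close promoter peaks. The share in the window around the start was not computed, so the higher value may not be particular to the members' window. The members touched 298 of 17242 autosomal protein-coding genes, 1.73%. Of these genes 24 also had a close promoter peak (8.05%), against 2.20% of all autosomal protein-coding genes. In 15 genes there were 2 members and no gene had more.

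Shared upstream stretches held some of the stronger members. In 39 members (14.4%, 10.7 to 19.1) the summit lay between divergent starts, against 127 of 336 close promoter peaks (37.8%, 32.8 to 43.1), but the rule itself requires both starts to be over 250 bp away for a member and so bears on this difference. The 39 had a median signal of 120 and 53.8% of them were called in both replicates, against 86 and 29.7% for the 232 members with starts on 1 strand. Calls in both replicates were confined to the stronger members, so this share is not independent of the signal. The 39 also lay nearer to a start, at a median of 385 bp against 484 bp, and the part of distance in these values was not tested. Besides rpl-15 with K11H12.8 and tag-340 with nhl-2, the strongest lay between rps-1, ribosomal protein eS1, and ifet-1, an eIF4E-binding translational repressor, at 272, with 172 in replicate 1 and 102 in replicate 2. wip-1, an actin regulator, and larp-1, a La-related RNA-binding protein, shared a member at 266, with 143 and 126. R107.5 and cls-2, a CLASP microtubule regulator, shared one at 213, with 105 and 99.3. Y77E11A.7, a SET domain protein gene, and jtr-1 shared one at 207, with 119 and 91.1. All 6 were called in both replicates.

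The summit was between genes in 195 members (72%), in an intron in 54 (19.9%) and in an exon in 22 (8.12%). The 76 inside a protein-coding gene (28.0%, 23 to 33.7, against 30.1% of close promoter peaks) included 54 inside a gene whose other start placed the peak, for example brc-1, the BRCA1 homolog, at 209 and mask-1, an ankyrin and KH domain protein, at 201. The strongest in another gene only was mtcu-2, a mitochondrial tRNA modification protein, at 226, with 155 in replicate 1 and 69.1 in replicate 2, whose summit lay in an intron of let-268. Exonic members were weak, with a median of 70.6 and a highest of 118, and 1 of the 22 was called in both replicates. Intronic members, with a median of 90.4, and those between genes, with 93.8, differed little.

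By chromosome, the members numbered 56 on I, 64 on II, 54 on III, 60 on IV and 37 on V. Per Mb of the same window this came to 26.0, 25.4, 28.3, 23.4 and 10.3, so chromosome V had the lowest density by far. The strongest member on V, at vps-60, a subunit linked to the ESCRT machinery, reached 190, while the highest on each of the other 4 ran between 354 and 609.

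Noncoding RNA genes lay near some members, as near other autosomal peaks. In 67 members (24.7%, 20 to 30.2) such a gene lay within 250 bp of the summit, against 40 of 336 close promoter peaks (11.9%, 8.87 to 15.8) 57 of 246 peaks in gene bodies (23.2%) and 70 of 242 autosomal peaks elsewhere (28.9%, 23.6 to 34.9). The class was snoRNA at 20 members, snRNA at 7, miRNA at 2 and the unclassified ncRNA at 49, with some members near several. The 20 near a snoRNA gene had a median of 118 and 11 of them were called in both replicates, against a median of 86.8 for the 204 members with no noncoding gene near. After F59C6.18 and H41C03.3 the strongest near a named class were egg-5, an oocyte pseudophosphatase gene, at 205 with 84.4 in replicate 1 and 118 in replicate 2, near sls-2.4, and T02E1.2 at 187, called in both replicates, near the snoRNA gene T02E1.9. The egg-5 peak shared its replicate 1 region with a member of 23.6 beside it. Which of the neighbouring genes a peak belongs to was not tested. A tRNA gene lay within 1000 bp of 1 member.

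Cytosolic ribosomal protein genes had the highest share of members among the lists of 40 or more genes. They had members at 11 of 81 genes (13.6%, 7.76 to 22.7), beside 1.73% of all genes, with a median signal of 200, and 8 of the 11 were called in both replicates. After rpl-3, rpl-15, rpl-35 and rps-1 came rps-24 at 236, rps-28 at 200, rps-23 at 188, rps-15 at 134, rpl-14 at 94.6, rpl-7 at 92.1 and rpl-41.2 at 73.6. Their summits lay 262 to 453 bp from the start. A close promoter peak was found at 8 of the 81 genes, beside 2.20% of all autosomal protein-coding genes. Mitochondrial ribosomal protein genes had 2 of 70 (2.86%, 0.787 to 9.83) and translation factors and tRNA synthetases 1 of 73 (1.37%, 0.242 to 7.36), eif-3.B at 108, both with intervals that include 1.73%. The second of these lists had 8 genes with a close promoter peak. The lists were chosen with earlier results in view and describe these peaks only. They match gene symbols, so genes of a class that have only a sequence name, or a symbol outside the patterns, are not in them. A member assigned to 2 genes, as 42 were, counts for each. rps-23, for example, shares its member with dpm-3, whose start is the nearer.

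Chromatin regulators had members at 10 of 84 genes (11.9%, 6.60 to 20.5), at lower signals, with a median of 93.3 and 1 of the 10 called in both replicates. That one was cbp-1, the CBP/p300 acetyltransferase, at 201 with 117 in replicate 1 and 86.2 in replicate 2, 891 bp from its start. swsn-7, an ARID subunit of the SWI/SNF remodeller, had 148 with 72.4 and 74.7. lin-59, a histone methyltransferase of the ASH1 type, had 111 with 56.3 and 53.5, and jmjd-1.2, a histone demethylase, had 110 with 59.5 and 37.6. The other 6, set-4, nurf-1, pbrm-1, lin-13, set-2 and chd-1, ran between 65.7 and 106. The same list had 14 genes with a close promoter peak.

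Membrane traffic genes had members at 10 of 117 (8.55%, 4.71 to 15.0), led by sec-61.B, the beta subunit of the endoplasmic reticulum translocon, at 206 in a member shared with trap-3, vps-60 at 190, vps-39, a tethering subunit, at 161 and vps-32.1, of ESCRT-III, at 122, and 7 of the 10 were called in both replicates. Splicing genes had 5 of 59 (8.47%, 3.67 to 18.4), mog-4 first. Then came rsp-1 and rsp-2, a pair of SR protein genes that share 1 member at 123, snr-4, an Sm protein, at 83.1 and uaf-2, the small U2AF subunit, at 49.0. Of these 4 peaks 1, that of mog-4, was called in both replicates. sluh-7, a pre-mRNA splicing factor gene outside the list, had a member at 123 that was called in both replicates. Respiratory chain genes with a class symbol had 4 of 65 (6.15%, 2.42 to 14.8). These were cox-5A, cox-6A at 149 and the complex I genes nduf-9 at 143 and nduf-2.2 at 125, and these 4 were called in both replicates. All but cox-5A had another gene nearer or close by. The cox-6A summit, 833 bp from its start, had an snRNA gene within 250 bp. The nduf-9 summit, at 655 bp, had a miRNA gene within 250 bp. nduf-2.2, at 840 bp, shares its member with dlc-1, at 603 bp. RefSeq names 3 more members' genes as respiratory, found after the values were seen. Y82E9BR.3, the ATP synthase c subunit, had 120 and was called in both replicates. F29B9.11, cytochrome c oxidase polypeptide VIIc, at 110 and F36A2.7, cytochrome c oxidase subunit 4, at 106 were called in replicate 1 only.

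Chaperones had 4 of 69 (5.80%, 2.28 to 14), with hsp-90 at 173, whose summit lay in an intron of hsp-90 and nearer to the start of C47E8.4, hsp-1, a constitutive Hsp70, at 172, crt-1, calreticulin, at 90.0 and dnj-20 at 83.7. The chaperone list had 9 genes with a close promoter peak. General transcription factors and polymerase subunits also had 4 of 69, taf-4 at 116, mdt-19 of Mediator at 113, taf-12 at 107 and ttb-1, TFIIB, at 59.5. Ubiquitin conjugation had 3 of 60 (5%, 1.71 to 13.7), ubc-3 at 184, usp-4 at 99.7 and ubc-25 at 80.7. The proteasome list had 1 of 41 (2.44%, 0.432 to 12.6), ufd-2 at 84.3, and cell cycle and replication genes had 1 of 78 (1.28%, 0.227 to 6.91), rpa-2. The intervals of the ubiquitin conjugation, proteasome and cell cycle lists include 1.73%, the first of them narrowly. Members also lay at related genes whose symbols these lists do not match, found after the values were seen. Among them were let-70, a ubiquitin-conjugating enzyme, at 72.4, and the ubiquitin ligases wwp-1 at 158, ari-1.4 at 126 and eel-1 at 347. The cell division genes spd-5, ani-1 and czw-1 are likewise outside the cell cycle list. The shares therefore cover matched genes only. Of the small lists, 2 of 18 vacuolar ATPase genes had a member, vha-1 at 113 and vha-13 at 79.7. Of 7 heterochronic timing genes, which set the order of larval stages, nhl-2 had one at 275 and lin-28 one at 87.2. MADF genes had the 2 of 10 named above.

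In 2 large lists the interval lay below the 1.73% of all genes. Of 1214 chemoreceptor genes sre-23 had a member, at 165 with 72.4 in replicate 1 and 91.4 in replicate 2 (0.0824%, 0.0145 to 0.465), and of 632 innate immunity and detoxification genes 3 had one (0.475%, 0.162 to 1.39), gst-27 at 117, fbxa-64 at 62.5 and clec-183 at 59.3. A snoRNA gene lay within 250 bp of the sre-23 summit, which was 614 bp from its start, and of the gst-27 summit. The lists named next had intervals that include 1.73%. Nuclear hormone receptors had 3 of 247 (1.21%, 0.414 to 3.51), nhr-85 at 93.5, nhr-114 at 65.6 and nhr-49 at 60.7. Homeobox and bHLH factors had 1 of 79 (1.27%, 0.224 to 6.83), hlh-30, the TFEB homolog, at 88.7, while W06H8.6, a bHLH gene by its RefSeq product and outside the list, had a member at 122. Cuticle collagens had 1 of 145 (0.690%, 0.122 to 3.80), bli-1 at 56.1. None of the genes matched by symbol had a member in the lists of 108 neuropeptide and insulin-like genes, 77 histone genes, 53 major sperm protein genes, 102 germline genes and 9 DREAM complex genes. F59C6.18, the FMRF-like peptide gene at 324, is not in the neuropeptide list, and egg-5 at 205, pan-1, named for P granules, at 75.3 and ego-1, an RNA-directed RNA polymerase gene, at 75 are not in the germline list.

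**Figure D4:**
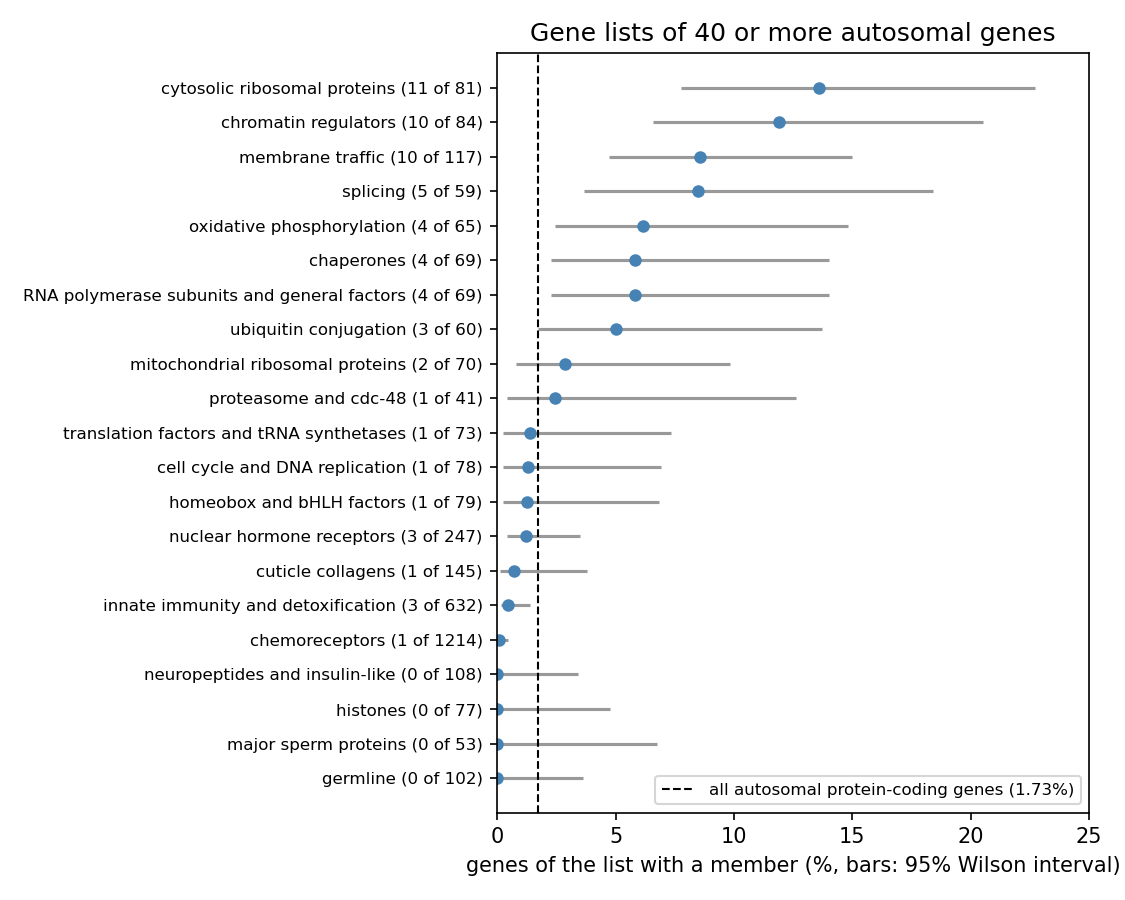
Share of the autosomal genes of each list that had a member (x axis, percent, with 95% Wilson intervals as bars), for lists of 40 or more genes, ordered by share, with the share of all autosomal protein-coding genes, 1.73%, as a dashed line. Cytosolic ribosomal proteins at 13.6% and chromatin regulators at 11.9% are at the top and chemoreceptors at 0.0824% near the bottom.

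The summits were rich in G and C. Averaged over 51 bp, G and C made up 51.3% of the bases at the member summits, 34.9% at 250 bp on the far side and 33.0% at 250 bp towards the gene, against 52.0%, 34.4% and 37.9% around close promoter peaks. The window as a whole held 34.7%. The median over the summit and 50 bases to either side was 50.5% for members and 49.5% for close promoter peaks. Sequencing yield can depend on base composition, and its part in the signal was not tested.

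**Figure D5:**
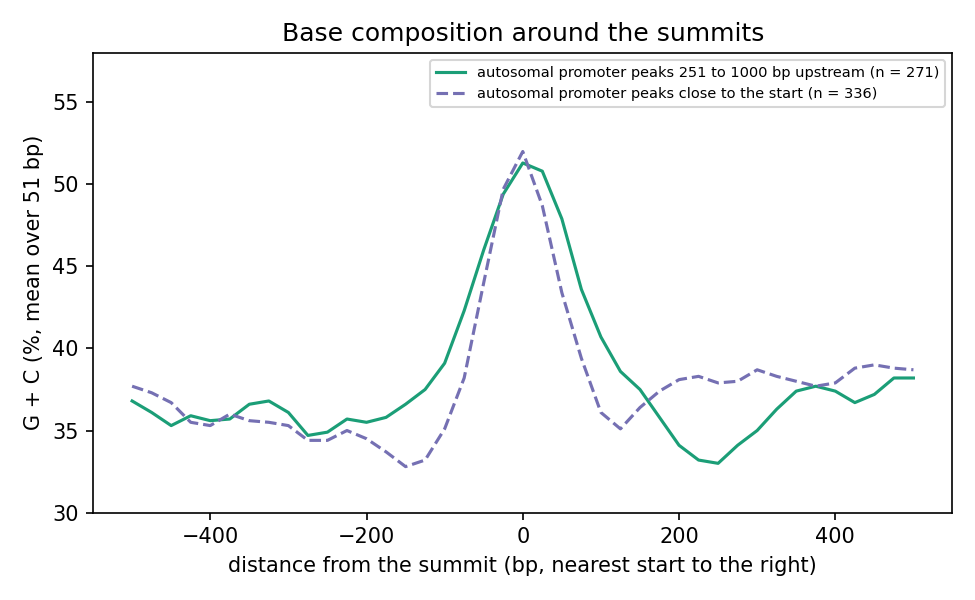
Mean share of G and C over 51 bp (y axis, percent) by distance from the summit (x axis, bp, nearest start to the right), for the 271 members as a solid line and the 336 close promoter peaks as a dashed line. Both rise to just over 50% at the summit, 51.3% for members, and the member curve is the higher on both sides at 50 to 100 bp from it.

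Some short words were more frequent at the summits than across the window. AGACGCAG and CTGAGCTA were taken from earlier results of these data, with no control for base composition, and get no test. AGACGCAG, on either strand and within 50 bp of the summit, was present in 21 members (7.75%, 5.12 to 11.6), against 35 of 336 close promoter peaks (10.4%, 7.59 to 14.1) and 0.679% of 117602 tiles of the same length across the window. In flanks 200 bp to either side of the members it was present in 5 of 271 each. It did not track strength, with 5, 6, 5 and 5 members in the 4 signal groups from strong to weak, and cnk-1, shown above, was the strongest that held it. CTGAGCTA was present in 0 of 271, which allows a share of up to 1.11%, and in 0.134% of the tiles.

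The other words that stood out on reading the windows were simpler. GAGAGA was in 63 members (23.2%, 18.6 to 28.6), against 62 of 336 close promoter peaks (18.5%) and 5.36% of tiles. GACGCA, the inner part of AGACGCAG, was in 44 (16.2%), against 67 (19.9%) and 2.14%. GCGCGC was in 35 (12.9%), against 49 (14.6%) and 0.795%. GAGAGA was found in 11, 15, 17 and 20 members of the same 4 groups. These words and the next were chosen after the sequences were seen, with no control for base composition, and get no test.

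CTACGGT stood in some of the strongest windows, as the sequences of rpl-3, rpl-15, eel-1, cox-5A and rps-1 show. It was in 9 members (3.32%, 1.76 to 6.19), against 6 of 336 close promoter peaks (1.79%, 0.821 to 3.84), 0 of 271 in each flank and 0.446% of tiles. In the 4 signal groups, from strong to weak, 7, 2, 0 and 0 members held it. The others were R107.5 at 213, sqd-1, an RNA-binding protein gene, at 192, vha-1 at 113 and rpl-14 at 94.6, so 4 of the 9 lay at ribosomal protein genes. AGTGTA, also seen in several of these windows, was in 12 members (4.43%, 2.55 to 7.58), against 15 close promoter peaks (4.46%) and 3.44% of tiles. In the 4 signal groups, from strong to weak, 7, 1, 1 and 3 members held it, or 10.3% (5.08 to 19.8) of the strongest.

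A repeated element lay under a group of members. It was noticed after the sequences were read, and its core of 20 bases was taken from the members' own windows, which favours members in any count. The core had 151 copies in the genome with up to 3 mismatches and no gaps, 84 of them exact, with 3 of the 151 on X. A copy lay under 11 members (4.06%, 2.28 to 7.12), 5 close promoter peaks (1.49%, 0.637 to 3.44), 4 autosomal peaks elsewhere, and 0 of 246 gene-body peaks, 0 of 237 peaks on X and 0 of 305 near tRNA genes. Of 35 copies in the members' window, 11 were under a peak (31.4%), against 20 of all 151 (13.2%). The copies counted under members were all exact. Y62F5A.12, at 248, held a copy with a gap in the core, which the search did not count. Each run below is 60 bases on the strand of the element, with 20 bases before the core, the core in capitals, and 20 after it, and the copies of eel-1 come from its pair of members, the nearer first.
eel-1, chrIV:3050476-3050535, plus strand: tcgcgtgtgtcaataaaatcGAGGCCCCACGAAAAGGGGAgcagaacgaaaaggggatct
eel-1, chrIV:3050844-3050903, minus strand: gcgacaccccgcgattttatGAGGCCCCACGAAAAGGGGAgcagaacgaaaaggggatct
rps-24, chrIV:385507-385566, minus strand: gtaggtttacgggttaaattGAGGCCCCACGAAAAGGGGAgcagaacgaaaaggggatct
atad-3, chrII:10248499-10248558, minus strand: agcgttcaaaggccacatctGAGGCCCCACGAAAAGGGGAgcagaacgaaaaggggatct
C26B2.7, chrIV:8015822-8015881, plus strand: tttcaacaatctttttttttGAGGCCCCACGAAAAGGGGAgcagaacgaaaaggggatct
C09E7.7, chrIII:6551753-6551812, minus strand: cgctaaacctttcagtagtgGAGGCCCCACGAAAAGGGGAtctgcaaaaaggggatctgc

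The bases after the core were also alike in 5 of the 6 copies shown, while those before it differed from copy to copy. The signals at these members were 347 and 199 at eel-1, 236 at rps-24, 206 at atad-3, a mitochondrial AAA ATPase gene, 174 at npp-6, a nuclear pore gene, 115 at C26B2.7, 111 at cpt-2, 108 at W09B6.4 and at duo-3, 95.5 at C09E7.7 and 91.4 at ttll-4. They thus ran from the upper part of the members to their median. Replicate 1 was the higher in 8 of the 11. The first base of the core lay 10 to 29 bp from the summit in 10 of the 11 and 20 bp on the other side of it at C09E7.7. Reads from repeated copies may not map to 1 place, and how the authors placed them is not given in the sources used here, so the part of mapping in these values was not tested.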

How the data were processed

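The labels describe anti-GFP ChIP-seq of GFP-tagged MADF-9 in whole L4 larvae, 2 replicates, on ce11. The deposited files used here are peak lists with no counts, so depth is unknown here. Aligner and caller were not given in the sources used here. Scores, as deposited, scale the irreproducible discovery rate (IDR) and were 830 or more in the thresholded sets, for an IDR up to 0.01. Signal, as deposited, is the caller's value per peak, on an unstated scale. The deposited −log10 q values, 0.0202 to 1.72 in the main set, were only read, and the deposited −log10 IDR values found which ranked regions passed. Where the values were made from both replicates, they carry no error.

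Members were found with Python 3.11.15, numpy 2.4.6 and scipy 1.17.1 from Ensembl release 115 starts on WBcel235, the assembly ce11 names, with all transcript starts of protein-coding genes used. A replicate's value is that of the ranked region that overlaps it most, by 1 bp or more, and a member was called in a replicate when it overlapped a peak of that replicate's own set by at least 1 bp. Densities divide by the length of the window outside the excluded zones. Words were searched on both strands. Shares have 95% Wilson intervals, and the limit for a count of 0 is 3 counts. The code was tested on simulated data.

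The text names the 12 strongest and 4 weakest members, the 3 at each edge, the 6 strongest between divergent starts, the 4 strongest near a snoRNA, snRNA or miRNA gene, the 4 strongest in neither own set, the 4 strongest of each gene list, and MADF genes. Others were named after their values were seen. The members, the lists and the words AGACGCAG and CTGAGCTA were chosen with earlier results of these data known. The lists rest on symbol patterns, of which 3 were corrected after the peaks were read, since they took genes of other functions. No per-sample column was left out.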

Additional observations from a re-analysis of the deposited data

How the results depend on the processing

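Over 11 results and 13 alternatives, 99 of 120 values stayed within the interval of the reported value, or within 1.5 times a count. The number of members, 271, was 137 among the stronger 50% of peaks by signal, and 119 to 171 in a single replicate's own set. The share of autosomal promoter peaks, 44.6%, was 37.1% with an inner bound moved to 300 bp and 39.5% with an outer bound of 750 bp, and 40.8% to 43.8% with 1 replicate left out. The median distance, 458 bp, was 411 bp among the stronger 50%, 527 bp with that inner bound and 400 bp with the outer bound of 750 bp, and 426 to 445 bp with 1 replicate left out. The median signal, 91.4, was 107 at a deposited score of 1000 and 123 among the stronger 50%, and 61.9 to 63.4 in a single replicate's set, whose signal is that replicate's own. The share called in both replicates, 33.2%, was 43.9% at a score of 1000 and 65.7% among the stronger 50%. The share between divergent starts, 14.4%, was 21.2% among the stronger 50% and 16.8% to 19.9% with 1 replicate left out. The share inside a gene body, 28.0%, was 12.9% when only the most upstream start of each gene was used, which removes members placed by an inner start, and 23.4% to 24.4% with 1 replicate left out. The share near a noncoding RNA gene, 24.7%, was 28.1% to 31.1% with 1 replicate left out. The share with AGACGCAG, 7.75%, was 12.5% within 100 bp, a longer window, and 5.04% to 6.43% with 1 replicate left out, and CTGAGCTA stayed at 0. The replicate correlation ran between 0.66 and 0.70. A single replicate's set gives no value for it or for the share called in both. Leaving out the 13 members that share a replicate region, an alternative chosen after seeing the data, moved none of the 11 results beyond its interval. No paired analysis was possible because there was 1 group. With no counts, depth sets a limit that could not be measured.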
